A study of Mus musculus with 17 samples.

Results

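The insulin-like growth factor (IGF) family was followed in skeletal muscle through the 9 genes that encode its ligands (Igf1 and Igf2), its receptors (Igf1r and Igf2r) and 5 of its binding proteins (Igfbp3, Igfbp4, Igfbp5, Igfbp6 and Igfbp7). The 9 genes were chosen by name, and all 9 were among the 19938 genes measured, each by 1 probe set that carried no other gene symbol. Gene expression was measured on 17 arrays, 1 per mouse, all from male wildtype C57BL/6N mice of 5 to 6 months. In the STZ,BEZ group (n = 5) the mice had received 65 mg/kg streptozotocin on 5 days at an age of 10 to 16 weeks and, from 2 weeks later, chow with 0.25% or 0.5% bezafibrate for 8 weeks. The labels do not say which mouse ate which strength, so that the group may mix the doses. In the STZ,SD group (n = 5) the mice had received the same streptozotocin injections and ate standard chow. In the Con,SD group (n = 7) the mice had been mock-injected with citrate buffer and ate standard chow. Streptozotocin kills the beta cells of the pancreas and thereby models type 1 diabetes, and bezafibrate is a lipid-lowering fibrate, an agonist of the PPAR nuclear receptors. The sources used here do not name the muscle.

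In muscle, IGF-1 and IGF-2 are made locally and also reach the fibres with the blood, where most IGF-1 stems from the liver. Both ligands act through IGF1R, a tyrosine kinase that feeds the same insulin receptor substrate and Akt route as the insulin receptor and drives protein synthesis and growth of the fibre. IGF2R, the cation-independent mannose-6-phosphate receptor, takes up IGF-2 for breakdown and sorts lysosomal enzymes. The binding proteins are secreted, hold the ligands in the blood and the tissue fluid, and either keep them from the receptor or store them next to it, while IGFBP7 binds IGFs only weakly.

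All values are log2 expression values, where a step of 1 stands for a doubling of signal, and a probe set's value can be set against its own value in other arrays but not against that of another gene. The 10 skeletal muscle markers (Acta1, Ckm, Myh4 and others) averaged between 13.26 and 13.54 on every array, so that the defining genes of the labelled tissue were present throughout. Array 1 of Con,SD stood apart, with a mean correlation of 0.969 with the other control arrays, against 0.985 to 0.989 for those. On this array 13 hepatocyte markers averaged 11.8 and 10 testis markers 8.72, whereas the other 16 arrays lay between 7.38 and 9.70 and between 5.24 and 5.95. Next highest in both were arrays 2 and 3 of Con,SD, with hepatocyte means of 9.70 and 9.11 and testis means of 5.89 and 5.95. No streptozotocin array exceeded 8.90 and 5.49. Arrays 2 and 3 of STZ,SD had the lowest mean of 10 fibroblast markers, 8.44 and 8.56, against 9.32 to 9.54 on the other 3 STZ,SD arrays and 9.11 to 9.38 in Con,SD. For the members and the pathway genes named other than Pik3r1, values without array 1 of Con,SD or without arrays 2 and 3 of STZ,SD are given where a call changed or a called value moved by over 1.5 times.

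Of the 9 genes, 5 changed in STZ,SD vs. Con,SD: Igf2, Igf1r and Igfbp3 rose, and Igfbp5 and Igfbp6 fell (limma, Benjamini-Hochberg adjusted p under 0.1, the threshold for every call below). Of all genes, 25.8% were called in this comparison, 13.9% as higher and 11.9% as lower. Of the 9 genes, 4 changed in STZ,BEZ vs. Con,SD, with Igf2, Igf1r and Igfbp3 higher and Igfbp6 lower, while 21.6% of all genes were called, 13.1% higher and 8.45% lower. Between STZ,BEZ and STZ,SD, 0 of the 9 genes and 0.0201% of all genes (4 genes) were called. The first and last of these comparisons share the STZ,SD arrays, and those against Con,SD share the control arrays, so that their values are given side by side and are not independent. Igf2, Igf1r and Igfbp3 lay higher on every STZ,SD array and every STZ,BEZ array than on any Con,SD array, and Igfbp6 lay lower. Such a complete separation from Con,SD was found for 8.3% of all genes in STZ,SD and for 8.51% in STZ,BEZ. STZ,BEZ and STZ,SD overlapped for all 9 members, where 1.16% of all genes did not overlap.

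**Figure D1:**
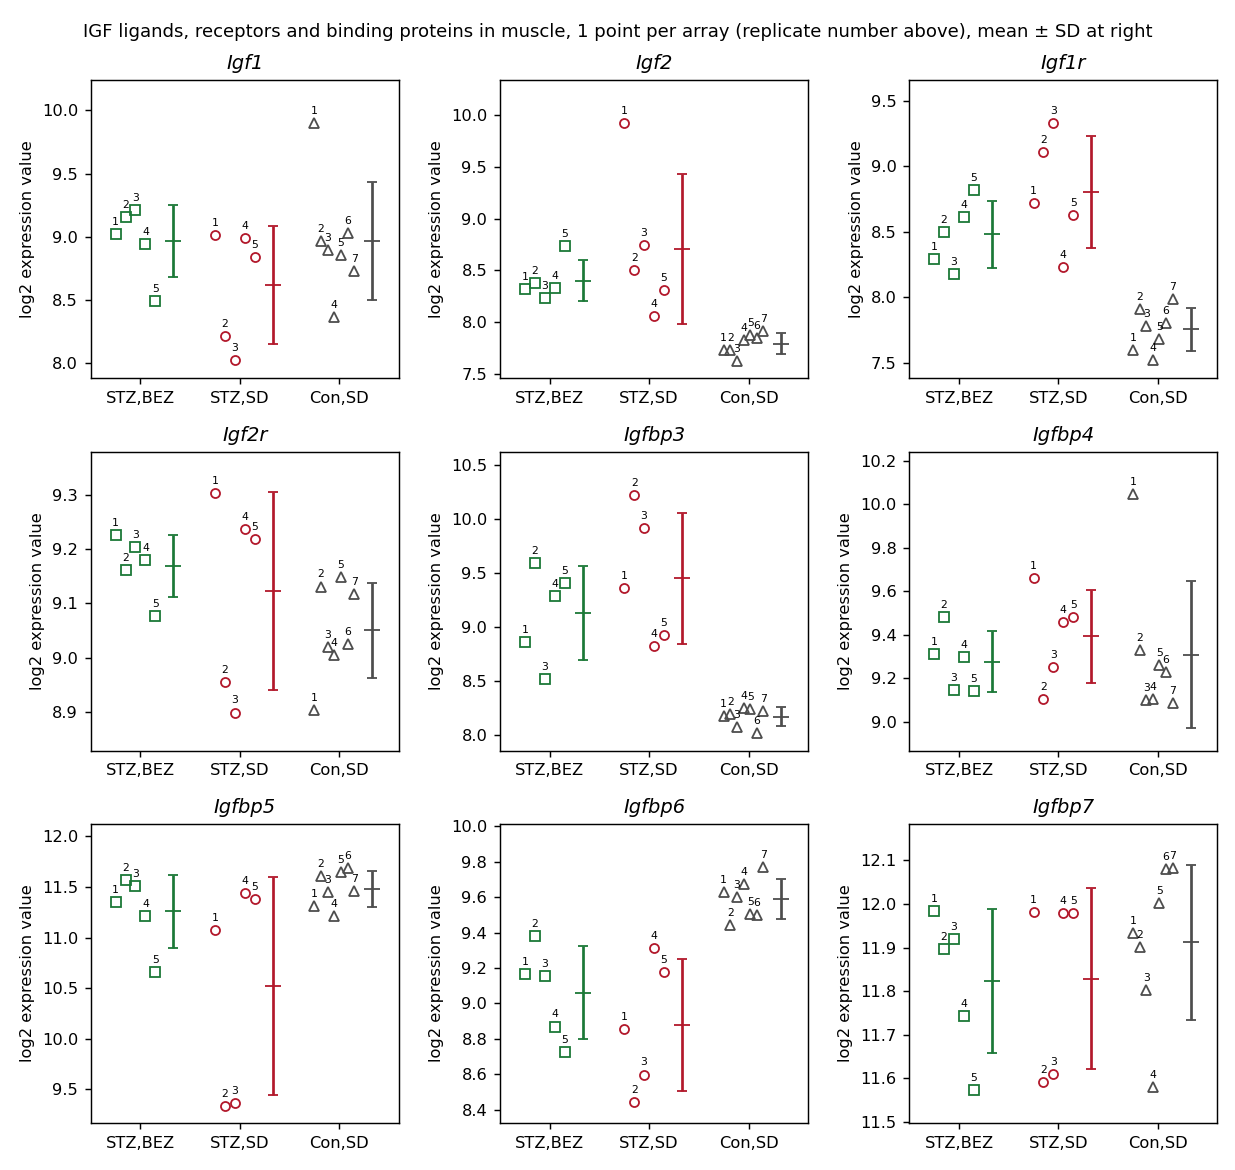
Log2 expression value (vertical axis, a scale of its own per gene) of the 9 IGF family genes on each array of STZ,BEZ (squares, n = 5), STZ,SD (circles, n = 5) and Con,SD (triangles, n = 7), with the replicate number above each point and each group's mean ± SD beside its points. Igf2, Igf1r and Igfbp3 lay above and Igfbp6 below all control arrays in both streptozotocin groups, and for Igfbp5 arrays 2 and 3 of STZ,SD lay near 9.34 and 9.36 while all others were at 10.66 or higher.

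The stretch of DNA just before the start site is shown for Igf1r and Igfbp3, which rose, and for Igfbp6, which fell. These 3 separated both streptozotocin groups from the controls and kept their calls against Con,SD with any 1 array left out. Igf2 separated both groups as well, but its call in STZ,BEZ was lost without some single arrays. Each run holds the 250 bases before the RefSeq start site (GRCm38.p6), read 5′ to 3′ on the strand of the gene, with the GC box (GGGCGG, or CCGCCC on the other strand) and the TATA box (TATAAA, or TTTATA on the other strand) in capitals.
Igf1r, chr7:67952007-67952256, plus strand: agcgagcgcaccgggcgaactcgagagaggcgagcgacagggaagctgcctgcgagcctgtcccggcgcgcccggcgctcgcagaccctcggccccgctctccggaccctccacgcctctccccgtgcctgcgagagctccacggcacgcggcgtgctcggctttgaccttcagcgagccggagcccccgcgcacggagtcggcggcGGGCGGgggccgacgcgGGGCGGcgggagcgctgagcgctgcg
Igfbp3, chr11:7213924-7214173, minus strand: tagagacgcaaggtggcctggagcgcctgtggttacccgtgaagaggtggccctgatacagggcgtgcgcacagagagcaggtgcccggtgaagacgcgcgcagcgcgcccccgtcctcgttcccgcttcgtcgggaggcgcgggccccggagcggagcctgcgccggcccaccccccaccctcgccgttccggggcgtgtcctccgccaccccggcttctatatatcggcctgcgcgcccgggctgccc
Igfbp6, chr15:102143936-102144185, plus strand: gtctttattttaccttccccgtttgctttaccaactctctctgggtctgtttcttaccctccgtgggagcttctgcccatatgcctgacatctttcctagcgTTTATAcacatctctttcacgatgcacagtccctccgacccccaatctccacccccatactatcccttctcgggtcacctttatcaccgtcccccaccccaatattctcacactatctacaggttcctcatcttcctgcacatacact
The Igf1r and Igfbp3 stretches are rich in G and C (77.6% and 73.2%, with 42 and 32 CpG dinucleotides), and that of Igfbp6 is not (49.6%, with 7), where the median over 32851 mouse promoter windows was 52.4% and the middle of the distribution ran from 45.2% to 61.2% (quartiles). Igf1r carried 2 GC boxes, 43 and 26 bases before the start, and Igfbp3 carried no GC box. Igfbp6 carried the letters of 1 TATA box on the other strand, 148 bases before the start. For the TATA box only the exact letters TATAAA were searched, so that variants, such as tatatat in the Igfbp3 stretch, are neither marked nor counted. All 9 members were matched to 12 windows, with 4 alternative starts for Igf2. A GC box was found for 4 of the 9 members (Igf1r, Igf2, Igf2r and Igfbp7) and in 32.7% of all windows. Members are counted here by gene and the shares are of windows, and the 4 windows of Igf2 gave it more chances of a match. The E-box CACGTG was found for Igf2r only and in 6.02% of all windows, and the TATA box, searched after the sequences had been seen, for Igfbp4 and Igfbp6 and in 12.4% of all windows. The FoxO site GTAAACA (3.17% of all windows) and the STAT site TTCNNNGAA (7.02% of all windows) were not among the letters of the 12 windows, on either strand. No match of one motif overlapped a match of another in these windows, and a match of letters is no measurement of binding.

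The ligands moved unequally. Igf1, the ligand that growth hormone induces, had values of 9.02, 9.15, 9.21, 8.95 and 8.49 in STZ,BEZ and of 9.02, 8.22, 8.02, 8.99 and 8.84 in STZ,SD, while Con,SD ran from 8.37 over a median of 8.90 to 9.90. The 3 groups overlapped, with arrays 2 and 3 of STZ,SD at the bottom and array 1 of Con,SD at the top. The difference was -0.35 ± 0.22 (SE, adjusted p = 0.291, limma) for STZ,SD vs. Con,SD, with a 95% interval of -0.81 to 0.11, and 0.00 ± 0.22 for STZ,BEZ vs. Con,SD. Without array 1 of Con,SD, where the hepatocyte markers were high, the STZ,SD difference was -0.19 ± 0.18, and without arrays 2 and 3 of STZ,SD it was -0.01 ± 0.23. With the mean hepatocyte marker level of each array as a covariate, Igf1 differed from Con,SD by 0.35 ± 0.21 in STZ,BEZ (adjusted p = 0.272, limma) and by -0.14 ± 0.19 in STZ,SD (adjusted p = 0.64).

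Igf2, the imprinted ligand that dominates before birth and is induced in differentiating muscle cells, was higher in both streptozotocin groups. Its values were 8.32, 8.38, 8.23, 8.33 and 8.74 in STZ,BEZ and 9.93, 8.50, 8.74, 8.05 and 8.31 in STZ,SD, while Con,SD lay between 7.62 and 7.91 with a median of 7.83. The lowest STZ,SD array, at 8.05, was thus still above the highest control, and array 1 of STZ,SD stood far above all others. Igf2 rose 1.89-fold in STZ,SD (log2 difference 0.92 ± 0.21, 95% interval 0.47 to 1.36, adjusted p = 0.00584, limma) and 1.52-fold in STZ,BEZ (0.61 ± 0.21, adjusted p = 0.0633), each against Con,SD. Without array 1 of STZ,SD the rise in that group was 0.61 ± 0.11 (adjusted p = 0.00142). The call in STZ,BEZ was lost when array 3 of Con,SD (0.58, adjusted p = 0.104), array 2 of STZ,BEZ (0.61, adjusted p = 0.11) or array 5 of STZ,BEZ (0.52, adjusted p = 0.152) was left out. Array 1 of STZ,SD enters the STZ,BEZ comparison only through the spread that all arrays share in the fit. Without it the STZ,BEZ difference was 0.61 ± 0.10 (adjusted p = 0.00121, limma).

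The receptors also parted. Igf1r, the signalling receptor of both ligands, had values of 8.29, 8.49, 8.18, 8.61 and 8.82 in STZ,BEZ and of 8.72, 9.11, 9.33, 8.23 and 8.63 in STZ,SD. In Con,SD it ran from 7.52 over a median of 7.78 to 7.99, below every streptozotocin array. Igf1r rose 2.07-fold in STZ,SD (1.05 ± 0.15, 95% interval 0.73 to 1.37, adjusted p = 0.000161, limma) and 1.65-fold in STZ,BEZ (0.73 ± 0.15, adjusted p = 0.00402). Without arrays 2 and 3 of STZ,SD, its highest, the rise in STZ,SD was 0.77 ± 0.14 (adjusted p = 0.00282).

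Igf2r, the receptor that clears IGF-2, was called in neither streptozotocin group. It lay between 9.08 and 9.22 in STZ,BEZ, between 8.90 and 9.30 in STZ,SD and between 8.90 and 9.15 in Con,SD. The differences from Con,SD were 0.12 ± 0.07 in STZ,BEZ (95% interval -0.03 to 0.27, adjusted p = 0.272, limma) and 0.07 ± 0.07 in STZ,SD (95% interval -0.08 to 0.22, adjusted p = 0.505). Arrays 2 and 3 of STZ,SD were its lowest in that group (8.96 and 8.90, against 9.22 to 9.30 for the other 3), and without both the STZ,SD difference was 0.20 ± 0.06 and passed the threshold (adjusted p = 0.0565).

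Among the binding proteins, Igfbp3 and Igfbp6 moved in opposite directions. Igfbp3, the main carrier of IGFs in the blood, had values of 8.86, 9.60, 8.52, 9.28 and 9.41 in STZ,BEZ and of 9.36, 10.22, 9.92, 8.82 and 8.93 in STZ,SD. The 7 controls lay close together, from 8.02 over a median of 8.20 to 8.25, below every streptozotocin array. Igfbp3 rose 2.43-fold in STZ,SD (1.28 ± 0.21, 95% interval 0.84 to 1.72, adjusted p = 0.000455, limma), the largest difference of the 9 members in that comparison, and 1.95-fold in STZ,BEZ (0.96 ± 0.21, adjusted p = 0.00527). Without arrays 2 and 3 of STZ,SD the rise there was 0.87 ± 0.18 (adjusted p = 0.00613).

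Igfbp6, which prefers IGF-2 over IGF-1, had values of 9.17, 9.38, 9.16, 8.87 and 8.72 in STZ,BEZ and of 8.86, 8.44, 8.60, 9.31 and 9.18 in STZ,SD. In Con,SD it ran from 9.44 over a median of 9.60 to 9.77, above every streptozotocin array, although array 2 of STZ,BEZ came close to the lowest control. Igfbp6 fell 1.64-fold in STZ,SD (-0.71 ± 0.14, 95% interval -0.995 to -0.43, adjusted p = 0.00149, limma) and 1.44-fold in STZ,BEZ (-0.53 ± 0.14, adjusted p = 0.014). The fall in STZ,SD was -0.47 ± 0.13 without arrays 2 and 3 (adjusted p = 0.0279). Fewer cells that express a gene and less RNA per cell cannot be told apart in these bulk samples.

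Igfbp5, a binding protein that is abundant in muscle and held in the extracellular matrix, fell in STZ,SD through 2 arrays. Its values were 11.35, 11.57, 11.51, 11.21 and 10.66 in STZ,BEZ and 11.08, 9.34, 9.36, 11.44 and 11.38 in STZ,SD, while Con,SD ran from 11.21 over a median of 11.46 to 11.69. Arrays 2 and 3 of STZ,SD were low, and arrays 4 and 5 lay within the range of the controls. The difference for STZ,SD vs. Con,SD was -0.96 ± 0.32 (95% interval -1.63 to -0.29, adjusted p = 0.043, limma). It was no longer called without array 2 (-0.67, adjusted p = 0.136), without array 3 (-0.67, adjusted p = 0.14) or without both (-0.18 ± 0.16, adjusted p = 0.503). In STZ,BEZ the difference from Con,SD was -0.22 ± 0.32 (adjusted p = 0.676).

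Igfbp4, which blocks IGF action until it is cleaved, and Igfbp7 did not pass the test in either streptozotocin group. Igfbp4 lay between 9.14 and 9.48 in STZ,BEZ, between 9.10 and 9.66 in STZ,SD and between 9.09 and 9.33 on 6 control arrays, with array 1 of Con,SD at 10.04. Its difference from Con,SD was -0.03 ± 0.14 in STZ,BEZ and 0.08 ± 0.14 in STZ,SD (95% interval -0.21 to 0.38), and STZ,SD vs. Con,SD gave 0.21 ± 0.09 without that control array (adjusted p = 0.115, limma). Igfbp7 lay between 11.57 and 11.98 in STZ,BEZ, between 11.59 and 11.98 in STZ,SD and between 11.58 and 12.08 in Con,SD. Its differences were -0.09 ± 0.10 in STZ,BEZ (95% interval -0.30 to 0.12) and -0.08 ± 0.10 in STZ,SD (95% interval -0.30 to 0.13).

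**Figure D2:**
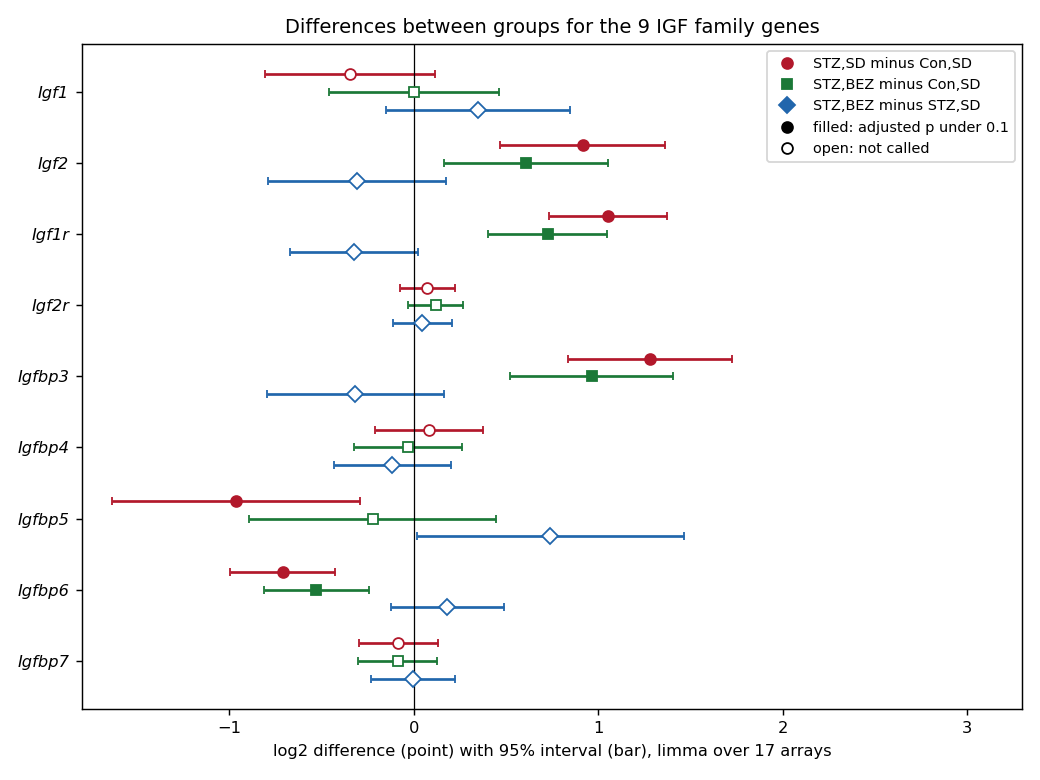
Log2 difference (points) with its 95% interval (bars) for the 9 genes in STZ,SD minus Con,SD (circles), STZ,BEZ minus Con,SD (squares) and STZ,BEZ minus STZ,SD (diamonds), from 1 limma fit of 17 arrays; filled points passed an adjusted p of 0.1. Igfbp3 and Igf1r had the largest rises (1.28 and 1.05 in STZ,SD), and all 9 diamonds are open.

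The STZ,SD arrays differed among themselves in a shared order. For Igf1r and Igfbp3 arrays 2 and 3 were the highest and array 4 the lowest, for Igfbp6 arrays 2 and 3 were the lowest and array 4 the highest. Igf1, Igf2r, Igfbp4, Igfbp5 and Igfbp7 were also lowest on arrays 2 and 3. Igf2 left this order, since array 1 was its highest (9.93), with array 3 next (8.74). In STZ,BEZ array 5 took a similar place, with the highest Igf1r and Igf2 and the lowest Igfbp5, Igfbp6, Igfbp7, Igf1 and Igf2r of that group, whereas Igfbp3 was highest on array 2. The controls spread little for Igf2 (SD 0.102) and Igfbp3 (SD 0.089), against SDs of 0.196 and 0.436 in STZ,BEZ and of 0.727 and 0.61 in STZ,SD.

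**Figure D3:**
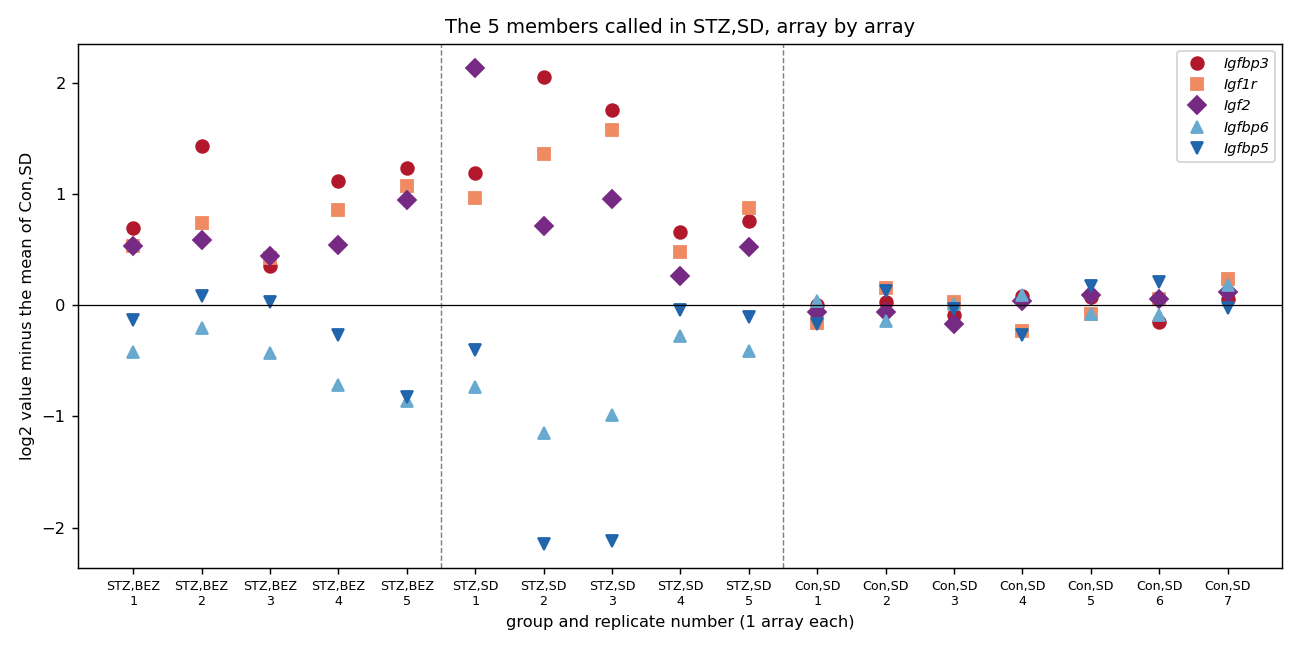
Log2 value minus the mean of Con,SD (vertical axis) for the 5 genes called in STZ,SD, on each of the 17 arrays, ordered by group and replicate number. On arrays 2 and 3 of STZ,SD Igfbp3 and Igf1r lay highest above the control mean and Igfbp5 and Igfbp6 lowest below it; Igf2 peaked on array 1 of that group.

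Markers of other cell types moved along with some of these values. The mean of the 10 fibroblast markers was 9.26, 9.29, 9.28, 9.01 and 8.75 in STZ,BEZ and 9.47, 8.44, 8.56, 9.54 and 9.32 in STZ,SD, against 9.11 to 9.38 in Con,SD, so that the arrays low in Igfbp5 were also low in these markers. The markers did not fall alike. On arrays 2 and 3 of STZ,SD the collagen gene Col1a1 had values of 7.79 and 7.90, against 8.95 or more in Con,SD, and the matrix protein gene Dpt 9.04 and 9.02, against 10.57 or more in Con,SD. The fibroblast-defining receptor Pdgfra, at 8.70 and 8.82 on these arrays, lay within the 8.58 to 8.92 of Con,SD, and Dcn, at 12.77 and 12.78, lay just under the 12.86 to 13.01 of Con,SD. Over the STZ,SD vs. Con,SD comparison 1 of the 10 markers rose (Fbln1) and 1 fell (Dpt), with a median difference of -0.23. Of all genes, 13.9% were called higher and 11.9% lower. Without arrays 2 and 3 of STZ,SD, 3 of the 10 rose and 0 fell, with a median difference of 0.13. Of all genes, 8.32% were then called higher and 5.71% lower. With the fibroblast level as a covariate, a setting chosen after the data had been seen, Igfbp5 fell by 0.60 ± 0.12 (adjusted p = 0.00217), Igfbp6 fell by 0.58 ± 0.08 (adjusted p = 0.000201), and Igf1r and Igfbp3 rose by 0.91 ± 0.11 and 1.09 ± 0.15 (adjusted p = 3.16e-05 and 0.000117) in STZ,SD. Without arrays 2 and 3 of STZ,SD and with no covariate, the difference of Igfbp5 was -0.18 ± 0.16 (adjusted p = 0.503, limma). The marker level comes from the same arrays and can itself change with treatment, so this covariate cannot separate cell share from other changes. The part of the connective tissue cells in these values was not tested.

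**Figure D4:**
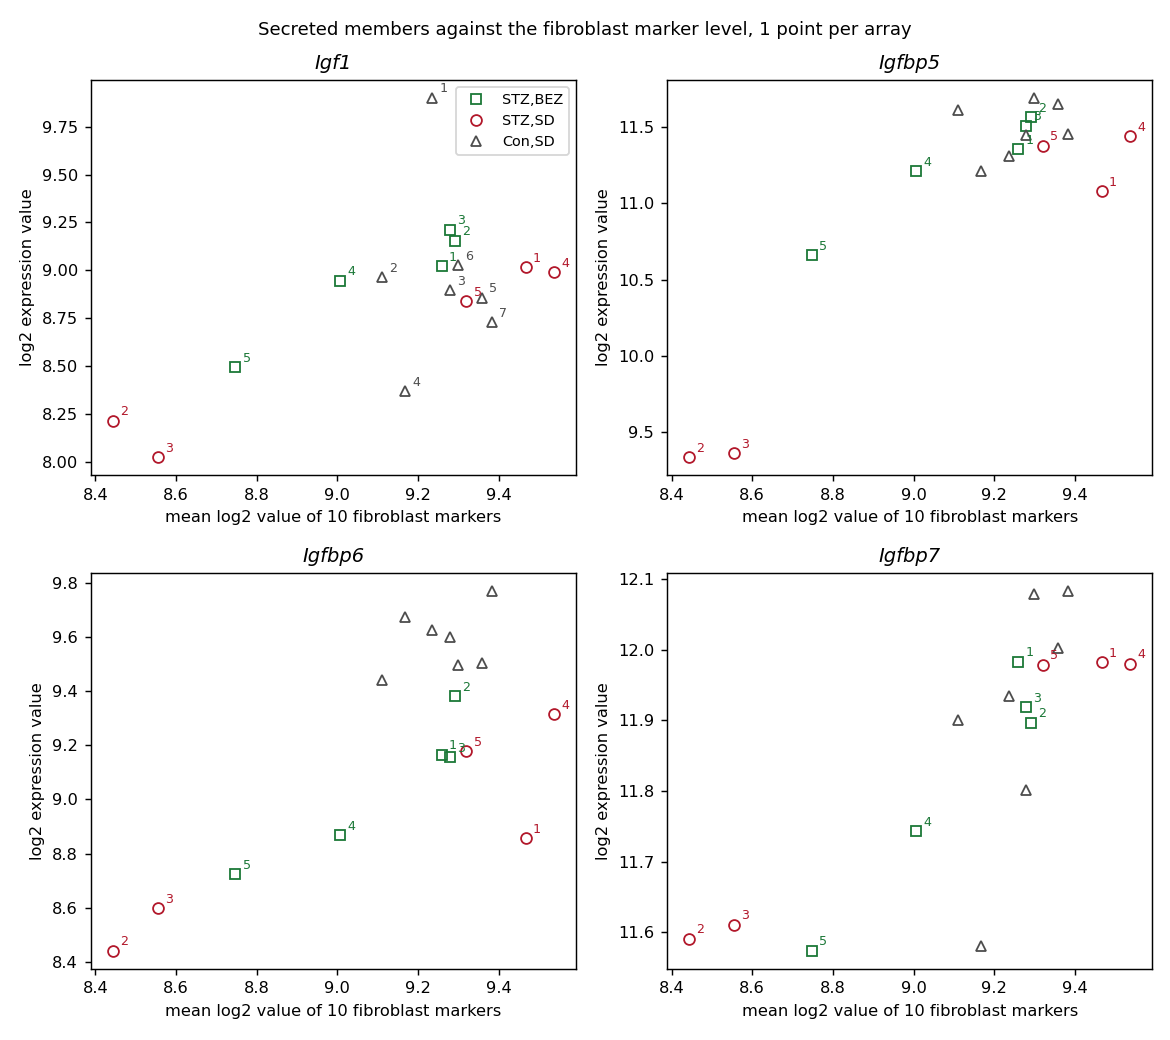
Log2 expression value (vertical axes) of Igf1, Igfbp5, Igfbp6 and Igfbp7 against the mean log2 value of 10 fibroblast markers (horizontal axes), 1 point per array, for STZ,BEZ (squares), STZ,SD (circles) and Con,SD (triangles), with replicate numbers. Arrays 2 and 3 of STZ,SD (marker means 8.44 and 8.56) and array 5 of STZ,BEZ (8.75) lay at the lower left for all 4 genes, while Igfbp6 of the other streptozotocin arrays lay below the controls at marker levels of 9.01 to 9.54.

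Endothelial cells are another known source of IGF binding proteins. Of 12 endothelial markers, 7 rose and 0 fell in STZ,SD and likewise 7 rose and 0 fell in STZ,BEZ, each against Con,SD, where 13.9% and 13.1% of all genes were called higher. Their median difference was 0.20 in STZ,SD and 0.23 in STZ,BEZ, against -0.01 over all genes in both. Without arrays 2 and 3 of STZ,SD, 3 of the 12 rose in STZ,SD, where 8.32% of all genes were called higher. Their mean was 8.86 to 8.95 in STZ,BEZ and 8.75 to 8.99 in STZ,SD, above the 8.51 to 8.74 of Con,SD on every array. The part of these cells in the rise of Igfbp3 or Igf1r was not tested.

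Bezafibrate was compared with standard chow within the streptozotocin-injected mice, which asked whether the drug altered the diabetic values. None of the 9 members was called in STZ,BEZ vs. STZ,SD, and the same holds under each of the 30 other settings of the fit. At an unadjusted p under 0.05, 1134 of all genes passed, and of the members only Igfbp5 did (0.74 ± 0.35, 95% interval 0.02 to 1.46, unadjusted p = 0.0455, adjusted p = 0.87, limma). This difference was -0.04 ± 0.17 without arrays 2 and 3 of STZ,SD, and 0.64 ± 0.12 (adjusted p = 0.13, limma) with the fibroblast level as a covariate. Igf1r was next (-0.33 ± 0.17, 95% interval -0.67 to 0.02, adjusted p = 0.903), and its difference was -0.05 ± 0.14 without these arrays. The other differences were 0.35 ± 0.24 for Igf1, -0.31 ± 0.23 for Igf2, -0.32 ± 0.23 for Igfbp3, 0.18 ± 0.15 for Igfbp6, -0.12 ± 0.15 for Igfbp4, 0.05 ± 0.08 for Igf2r and -0.01 ± 0.11 for Igfbp7. The intervals were wide for the members that separated from the controls, reaching from -0.79 to 0.17 for Igf2 and from -0.80 to 0.16 for Igfbp3, so that neither the loss of a large share of the rise nor its full persistence lay outside them.

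Beside the 9 members, 11 genes that bind IGFs or act on their binding proteins were followed. Of these, 4 rose and 0 fell in STZ,SD vs. Con,SD, where 13.9% of all genes were called higher, with a median difference of 0.04 against -0.01 over all genes. They were Stc2 (0.71 ± 0.18, adjusted p = 0.0117, limma) and Stc1 (0.22 ± 0.08), stanniocalcins that inhibit the pappalysin proteases, Pappa2 (0.34 ± 0.11), a pappalysin that cleaves IGFBP3 and IGFBP5, and Kazald1 (0.55 ± 0.20), a secreted protein related to the binding proteins. The signals of Pappa2 and Stc1 were low, with group means of 5.77 to 6.22 and of 5.89 to 6.11. Array medians were 6.22 to 6.32, and detection was not tested. Stc2 had values of 7.24, 7.30, 6.98, 7.42 and 7.96 in STZ,BEZ and of 7.69, 8.36, 8.16, 7.22 and 7.33 in STZ,SD, against 6.83 to 7.24 in Con,SD, with arrays 2 and 3 of STZ,SD again the highest. Without these arrays Stc2 (0.37 ± 0.16, adjusted p = 0.177) and Stc1 (0.19 ± 0.10, adjusted p = 0.267) were no longer called, so that 2 of the 11 rose, against 8.32% of all genes. Kazald1 had values of 8.56, 7.14, 6.88, 7.38 and 7.75 in STZ,SD, against 6.63 to 7.15 in Con,SD. Array 1 thus stood far above the rest of its group, and arrays 2 and 3 lay within the controls. Without array 1 the difference of Kazald1 was 0.30 ± 0.14 (adjusted p = 0.164), and without arrays 2 and 3 it was 0.91 ± 0.19 (adjusted p = 0.00678). In STZ,BEZ vs. Con,SD 2 of the 11 rose, where 13.1% of all genes were called higher, Pappa2 (0.45 ± 0.11) and Kazald1 (0.57 ± 0.20). The liver-type members Igfbp1, Igfbp2 and Igfals were called in neither comparison, although Igfals was called in STZ,BEZ without array 1 of Con,SD (0.22 ± 0.07, adjusted p = 0.0317).

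Of 7 genes of the growth hormone axis, 5 rose and 0 fell in STZ,BEZ, among them the STAT5 targets Cish (1.48 ± 0.34, adjusted p = 0.00713, limma) and Socs2 (0.96 ± 0.23), and 3 rose (Stat5b, 0.25 ± 0.06; Stat5a; Socs3) and 2 fell in STZ,SD, the growth hormone receptor gene Ghr (-0.34 ± 0.09, adjusted p = 0.0142) and Jak2 (-0.43 ± 0.14), each against Con,SD. Of all genes, 13.1% were called higher and 8.45% lower in STZ,BEZ, and 13.9% higher and 11.9% lower in STZ,SD. Socs3 (0.42, adjusted p = 0.021, limma) and Stat5a (0.20, adjusted p = 0.0654) were also among the rises in STZ,BEZ. Array 5 of STZ,BEZ lay within the controls for Cish (7.72, against 6.83 to 8.57), Socs2 (9.30, against 8.86 to 9.79) and Socs3 (7.07, against 6.96 to 7.39). The median differences were 0.32 in STZ,BEZ and 0.25 in STZ,SD, both against -0.01 over all genes. Without arrays 2 and 3 of STZ,SD, Ghr (-0.20 ± 0.09, adjusted p = 0.196), Jak2 (-0.25 ± 0.15, adjusted p = 0.31) and Socs3 (0.34 ± 0.14, adjusted p = 0.157) were no longer called in STZ,SD, which left 2 of the 7 higher and 0 lower. Of all genes, 8.32% were then called higher and 5.71% lower. Igf1, which this axis induces, was called in neither group.

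The insulin receptor gene Insr, its relative Insrr and genes of proteins just downstream of these receptors and of IGF1R made up a list of 19 genes, of which 7 rose and 2 fell in STZ,BEZ and 9 rose and 1 fell in STZ,SD, each against Con,SD, with medians of 0.11 and 0.14. Of all genes, 13.1% were called higher and 8.45% lower in STZ,BEZ, and 13.9% higher and 11.9% lower in STZ,SD, with medians of -0.01 in both. The rises included the receptor substrates Irs1 (1.11 ± 0.13 in STZ,BEZ and 0.91 ± 0.13 in STZ,SD, adjusted p = 3.3e-05 and 0.00012, limma) and Irs2 (0.71 ± 0.10 and 0.60 ± 0.10) and the catalytic subunit gene Pik3ca (0.30 ± 0.06 and 0.33 ± 0.06). Insr itself rose by 0.27 ± 0.09 in STZ,BEZ and by 0.31 ± 0.09 in STZ,SD (adjusted p = 0.0499 and 0.0175). Insrr, with low group means of 5.55 to 5.71, was one of the 2 that fell in STZ,BEZ (-0.16 ± 0.06, adjusted p = 0.0818). Grb14, an adaptor that inhibits these receptors, fell by 0.70 ± 0.16 in STZ,BEZ and by 1.02 ± 0.16 in STZ,SD (adjusted p = 0.00697 and 0.000311). Grb10, another gene of this list, went the other way. It rose by 0.47 in STZ,BEZ and by 0.60 in STZ,SD (adjusted p = 0.014 and 0.00214, limma). Pik3r1 was called higher in STZ,SD (0.83, adjusted p = 0.0193, limma) and not called in STZ,BEZ (0.26, adjusted p = 0.481). Its STZ,SD values were 10.34, 11.31, 11.03, 9.48 and 9.75, against 9.32 to 9.77 in Con,SD. Arrays 2 and 3 were thus its highest, and arrays 4 and 5 lay within the controls. Without arrays 2 and 3 of STZ,SD, 5 of the 19 rose and 1 fell in STZ,SD, against 8.32% and 5.71% of all genes. Irs1 (0.94 ± 0.15), Irs2 (0.45 ± 0.09), Pik3ca (0.38 ± 0.08) and Grb14 (-0.72 ± 0.14) kept their calls there, and Insr did not (0.15 ± 0.07, adjusted p = 0.232). In STZ,BEZ vs. STZ,SD 0 genes of these 3 lists were called. The smallest adjusted p was that of Jak2 (0.44 ± 0.15, adjusted p = 0.778), and Cish (0.96 ± 0.37, adjusted p = 0.796), Pik3r1 (-0.57 ± 0.25), Stc2 (-0.37 ± 0.20) and Grb14 (0.31 ± 0.17) had larger values of p. Without arrays 2 and 3 of STZ,SD these differences were 0.26 ± 0.16 for Jak2, 0.54 ± 0.39 for Cish, -0.05 ± 0.17 for Pik3r1, -0.03 ± 0.17 for Stc2 and 0.02 ± 0.15 for Grb14. With any single array left out, the calls named above against Con,SD held for Irs1, Irs2, Pik3ca, Grb14, Grb10, Pappa2, Stc2, Ghr, Stat5b, Cish and Socs2. They also held for Insr and Pik3r1 in STZ,SD and for Socs3 in STZ,BEZ. They were lost without at least 1 array for Kazald1 and Stat5a in both groups, for Stc1, Socs3 and Jak2 in STZ,SD and for Insr and Insrr in STZ,BEZ, with adjusted p up to 0.192 (limma).

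**Figure D5:**
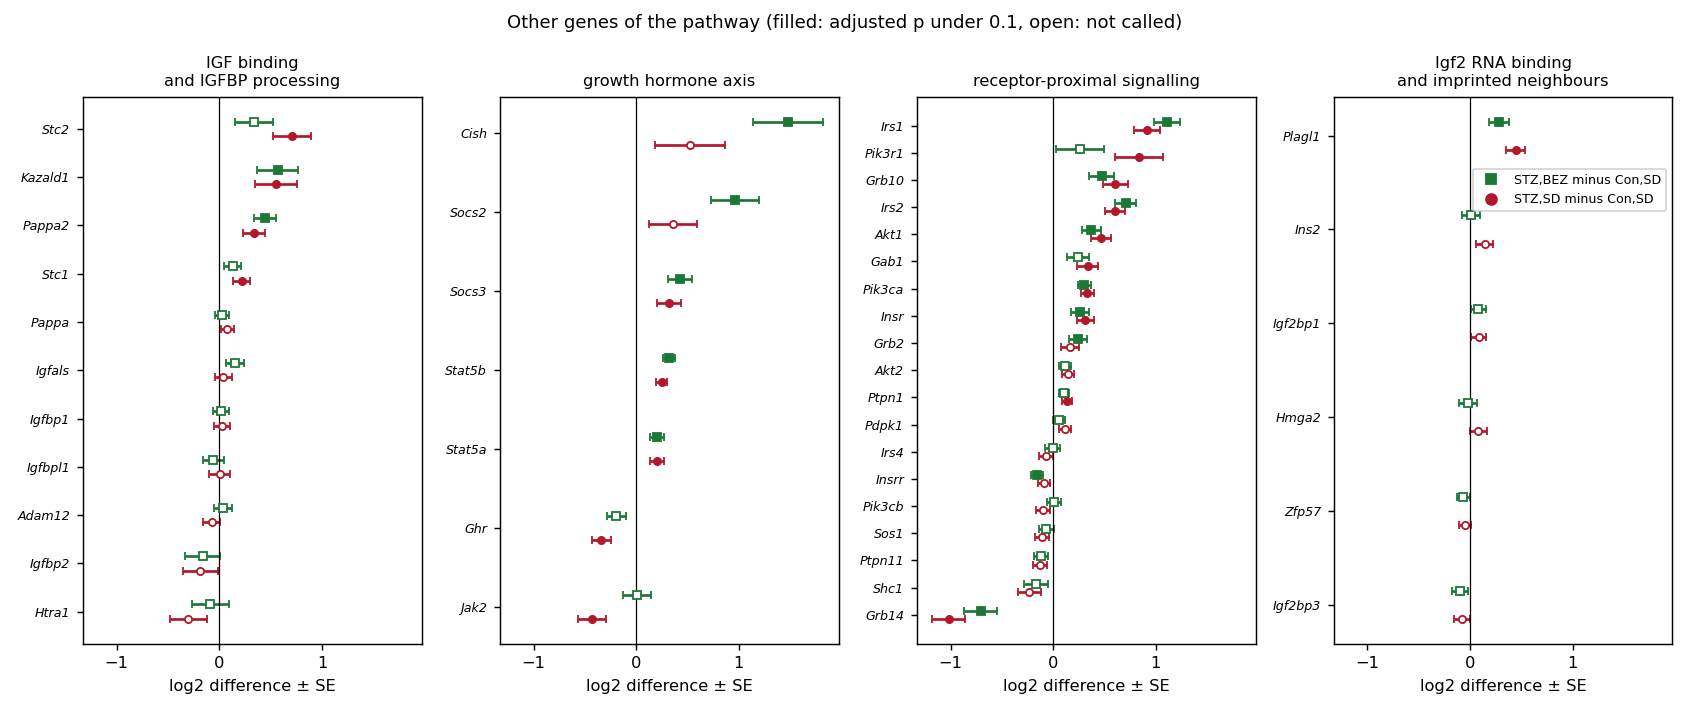
Log2 difference ± SE of the other genes of the pathway in STZ,BEZ minus Con,SD (squares) and STZ,SD minus Con,SD (circles), in 4 lists; filled points passed an adjusted p of 0.1. Grb14 lay lowest in both groups (-0.70 and -1.02), and Cish (1.48) and Irs1 (1.11) highest in STZ,BEZ.

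Igf2 and Igf2r are imprinted, Igf2 being read from the paternal and Igf2r from the maternal copy in most mouse tissues. Of 6 measured genes, chosen as Igf2 RNA-binding proteins (Igf2bp1 and Igf2bp3), as a neighbour of Igf2 (Ins2) or as regulators of Igf2 or of imprinting (Hmga2, Plagl1 and Zfp57), only Plagl1, an imprinted zinc finger factor, was called, with 0.28 ± 0.09 in STZ,BEZ and 0.44 ± 0.09 in STZ,SD (adjusted p = 0.0526 and 0.00312, limma). In STZ,BEZ this call was lost without array 2, 4 or 5 of that group (adjusted p up to 0.151). H19 and Igf2bp2 were not analysed here. Airn, the non-coding RNA that runs antisense across Igf2r and silences its paternal copy, was looked up after the values of Igf2r had been seen. It lay at 9.61, 9.79, 9.71, 9.61 and 9.76 in STZ,BEZ and at 9.77, 9.71, 9.85, 9.72 and 9.86 in STZ,SD, above the 8.98 to 9.46 of Con,SD on every array. It rose by 0.44 ± 0.08 in STZ,BEZ and by 0.52 ± 0.08 in STZ,SD (adjusted p = 0.00205 and 0.000348), while Igf2r itself was not called. Airn shares its locus with Igf2r, and which strand the probes detect was not checked.

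Mir483 lies within Igf2 and gives rise to miR-483, whose mature forms are printed with the seed (bases 2 to 8) in capitals because the precursor is read from the same locus as the ligand.
miR-483-3p: uCACUCCUccccucccgucuu
miR-483-5p: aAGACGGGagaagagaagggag
The precursor did not follow the rise of Igf2. Its probe set lay between 7.12 and 7.65 in STZ,BEZ, between 7.21 and 7.50 in STZ,SD and between 7.41 and 7.69 in Con,SD. The difference from Con,SD was -0.21 ± 0.08 in STZ,BEZ (adjusted p = 0.0937, limma, 0.101 without arrays 2 and 3 of STZ,SD, and up to 0.239 with 1 array left out) and -0.15 ± 0.08 in STZ,SD (adjusted p = 0.218). The array does not measure the mature forms apart from their precursor.

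Over the 17 arrays the genes whose values ran most like those of each member are given as a description, since the group differences enter every such correlation. For Igf1r these were Mbnl1, Tbc1d4 and Eif4ebp1 (Spearman's rho 0.975, 0.973 and 0.971), for Igf2 Fry, Plin5 and Dmd (0.975, 0.966 and 0.958), and for Igfbp3 Ptp4a3, Tnrc6c and Cd36 (0.971, 0.963 and 0.958). For Igfbp6 they were Pdcd2l, Sqor and Dapp1 (0.939, 0.926 and 0.922), and for Igfbp5 1110051M20Rik, Entpd4 and Tmem185a (0.949, 0.929 and 0.904). Igfbp7 ran closest to the matrix genes Fbln7 and Mmp2 (0.902 each), Igf1 to Vkorc1 (0.917), Igf2r to Slc45a4 (0.931) and Igfbp4 to Arsa (0.821). Among the members Igf2 and Igf1r, like Igf2 and Igfbp3, reached 0.919, and Igf1r and Igfbp6 ran in opposite directions (-0.9).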

How the data were processed

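The authors hybridised total RNA of mouse skeletal muscle to microarrays of the type Mouse Gene 1.0 ST (Affymetrix). The deposited values are log2 expression values, which the authors made with RMA (background correction, quantile normalization, median polish) in Affymetrix Expression Console 1.2 according to the submitters' processing notes. Since quantile normalization gives all arrays nearly one distribution, a change that most genes share would be hidden. The values ran from 2.76 to 14.6, with array medians of 6.22 to 6.32. Without scan dates or detection p-values, neither a batch nor detection was tested. The number of arrays limits the precision.

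Of 35556 probe sets, 21789 had 1 gene symbol in the platform annotation, 1621 had several and 12146 had none. Probe sets with 1 symbol were used, of which 21698 were matched to a mouse gene table, and for the 999 genes with several probe sets the one with the highest mean was kept, which left 19938 genes. Groups came from the labels, which number the arrays as biological replicates. The methods text differs from the labels in that it gives a lower streptozotocin dose, the higher bezafibrate strength alone and untreated controls. Differences were tested in 1 fit of the 17 arrays (lmFit and eBayes of limma 3.58.1, R 4.3.3) and called at a Benjamini-Hochberg adjusted p under 0.1 over all genes, the false discovery rate of 10% used in the study with another method (SAM), which was not run. Intervals are 95% intervals of the moderated statistic. The scripts were tested on simulated data. Other settings were scaling of the arrays, probe set choice, leaving out the 30% dimmest genes, array weights, a trended robust variance, covariates, a replicate block and leaving out arrays.

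The members, gene lists, motifs and alternatives were chosen with earlier results of these data known. All 9 members are named whatever their values. Of each pathway list, up to 4 genes with the smallest adjusted p in STZ,SD vs. Con,SD and up to 2 in STZ,BEZ vs. STZ,SD were open to naming, and for each member the 3 genes with the highest Spearman correlation. Socs2, Socs3, Insr, Insrr, Grb10, Igfbp1, Igfbp2, Igfals, Airn, Mir483 and the single fibroblast markers were named after their values had been seen. Of the other marker lists, smooth muscle and pericyte genes numbered 3 higher of 9 in both streptozotocin groups against Con,SD, satellite cell genes 3 of 7 higher in STZ,BEZ and 2 in STZ,SD, and adipocyte genes 1 of 6 lower in each. Hepatocyte genes numbered 7 of 13 lower in STZ,BEZ (median difference -1.41) and 1 in STZ,SD (-0.76). Of all genes, 8.45% and 11.9% were called lower there. Without array 1 of Con,SD they numbered 8 of 13 lower in STZ,BEZ (-0.92, against 10.8% of all genes) and 0 in STZ,SD. The part of this signal in the values of the members was not tested. Sequences come from RefSeq tables of GRCm38.p6. Protein sequences were not used here.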

Additional observations from a re-analysis of the deposited data

Results flagged for a closer look

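In 3 of 27 sets of values (9 genes in 3 groups) 1 array lay far from the others of its group. Chance alone flags about 1 in 20 such sets. Igf2 on array 5 of STZ,BEZ had a log2 value of 8.738, where the other 4 arrays of the group lay between 8.233 and 8.375. Igf1 on array 1 of Con,SD had a value of 9.901, where the other 6 controls lay between 8.369 and 9.028. Igfbp4 on the same control array had a value of 10.045, where the other 6 lay between 9.087 and 9.331. On that array 13 hepatocyte markers averaged 11.8, against at most 9.70 on any other array.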

How the results depend on the processing

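Of 810 differences of the 9 members (3 comparisons under 30 other settings, 17 of which leave out 1 array), 763 kept their direction and their side of the threshold, 11 lost the call, 3 gained one and 33 turned sign, of which 0 were past the threshold. Igfbp5 in STZ,SD vs. Con,SD and Igf2 in STZ,BEZ vs. Con,SD were the members that lost calls, and Igf2r was the one that gained them. Beside the arrays named in the report, Igf2 lost its call with a second quantile normalization (0.55, adjusted p = 0.102, limma), the hepatocyte covariate (0.60, adjusted p = 0.114) and without arrays 1, 3 and 4 of Con,SD (0.56, adjusted p = 0.175). With the fibroblast covariate Igf2r was called in STZ,BEZ (0.16, adjusted p = 0.0392) and in STZ,SD (0.13, adjusted p = 0.0908) against Con,SD.

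The number of members lower in STZ,SD than in Con,SD was 1 in place of 2 with the replicate block and without arrays 2 and 3 of STZ,SD together, and ran from 1 to 2 when 1 array was left out. All genes called in STZ,SD vs. Con,SD numbered 8673 with all probe sets as rows, 2796 without arrays 2 and 3 of STZ,SD, and 3814 to 5430 with 1 array left out, against 5142. In STZ,BEZ vs. Con,SD they numbered 7408 with all probe sets, against 4298. In STZ,BEZ vs. STZ,SD they numbered 11 with array weights, 8 with the arrays of both groups only, 14 with a covariate for the hepatocyte level and 7 without arrays 1, 3 and 4 of Con,SD, against 4. The cause of these shifts was not tested, except that the setting with all probe sets tests more rows.

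Replicate numbers did not pair the arrays: the correlation of same-numbered deviations ran from -0.239 to 0.083 over the 3 comparisons, and 0 of 5 pairs in each exceeded 0.1. With the replicate block Igfbp5 in STZ,SD vs. Con,SD was -0.93 (adjusted p = 0.13, limma) and Igf2 in STZ,BEZ vs. Con,SD 0.64 (adjusted p = 0.105).

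Signs turned only for differences that were not called. In STZ,SD vs. Con,SD Igfbp7 was 0.0685 without arrays 2 and 3 of STZ,SD and 0.0097 with the fibroblast level as a covariate. In STZ,BEZ vs. STZ,SD, leaving out those 2 arrays gave -0.0832 for Igf2r, 0.0966 for Igfbp3, -0.0389 for Igfbp5 and -0.0568 for Igfbp6; a second quantile normalization gave -0.0028 for Igf2r; median centring and the hepatocyte covariate gave 0.0059 and 0.0057 for Igfbp7; and leaving out 1 array gave -0.0091 to 0.0918 for Igf2r and -0.0645 to 0.0572 for Igfbp7. In STZ,BEZ vs. Con,SD Igf1 was -0.0046 with median centring, -0.0377 with a second quantile normalization, -0.0328 with the replicate block, -0.098 to 0.1575 with 1 array left out and 0.3497 with the hepatocyte covariate, the highest of its settings, against 0.0012 with no change. There Igfbp4 was 0.0417 with array weights, 0.219 with the hepatocyte covariate, 0.048 without arrays 1, 3 and 4 of Con,SD, 0.0137 with the fibroblast covariate and -0.0839 to 0.0903 with 1 array left out, and Igfbp5 was 0.0479 with the fibroblast covariate. The fibroblast covariate, the removal of arrays 2 and 3 and all arrays left out for pathway genes were chosen after seeing the data. Each member has 1 probe set, so that no other probe set of it could be tried.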
